A study of Mus musculus with 6 samples.

Results

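The core circadian clock genes were followed in the spinal cord of mice with a spinal cord injury. They were chosen by gene symbol as Arntl, Clock, Per1, Per2, Per3, Cry1, Cry2, Nr1d1, Nr1d2 and Dbp, 10 of the 54532 genes in the deposited count table, and all 10 passed the filter on low counts. Both groups were C57BL/6J mice with the injury. In the trained group (3 libraries) they exercised on a rotarod, a turning cylinder that makes a mouse walk to stay up, and in the untrained group (3 libraries) they did not. All 6 libraries are labelled day 28, counted from training, and the study set the transcriptomes of these groups side by side to ask what training changed after injury. The labels state no hour of tissue collection and no age or sex, nor the kind and level of the injury, and every mouse was injured.

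The molecular clock is a feedback loop of transcription that runs in most cells. The proteins of Arntl (also called BMAL1) and Clock pair up and switch on genes through a DNA element called the E-box. Among those genes are the Per and Cry genes, whose proteins return to the nucleus and shut the pair down, the Nr1d genes, whose REV-ERB receptors repress Arntl, and Dbp, an activator of output genes that binds an element called the D-box. In the brain and cord these genes cycle over the day in neurons and glia, and Per1 is also induced acutely by glucocorticoids and by cAMP signalling.

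RefSeq promoters (build GRCm38.p6, 250 bases before to 50 after each start) were found for 9 of the 10 genes, all but Per2, with 13 starts between them. They were searched on both strands for the E-box CACGTG, the D-box TTATGNAA, the ROR core site AGGTCA through which REV-ERB and ROR receptors bind, the cAMP element TGACGTCA and the glucocorticoid response element. The windows below are the E-box and D-box matches, shown because these elements join the activators and Dbp to the Per and Cry genes. Each runs 5′ to 3′ on the strand of its gene, with the motif in capitals.

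Per1 E-box, chr11:69098773-69098798: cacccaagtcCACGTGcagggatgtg

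Per1 D-box, chr11:69098915-69098942: gggcctggcaTTATGCAAcccgcctccc

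Per3 D-box, chr4:151044806-151044833: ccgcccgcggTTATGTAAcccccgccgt

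Per3 D-box, chr4:151044853-151044880: gacccgcgcgTTATGTAAggtactcggg

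Cry1 E-box, chr10:85185099-85185124: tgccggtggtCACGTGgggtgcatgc

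The E-box stood in 2 of the 13 promoters of these genes and in 7.15% of all 32851 promoters in the RefSeq table. The D-box stood in 2 of the 13 and in 3.38% of all promoters. The ROR core site stood in 4 of the 13 (Arntl, Clock, Nr1d2 and Per1) and in 16.3% of all. The cAMP element and the glucocorticoid element were found in 0 of the 13 windows, against 1.79% and 0.475% of all promoters. At shares that small, 13 windows would be likely to hold neither, so the 0 says little about these genes. Elements further than 250 bases before a start were not searched. The printed matches did not overlap any other motif searched. In the GENCODE M21 annotation both Per1 windows lie in an intron of Per1, the Per3 windows lie in an intron of Camta1 just upstream of Per3, and the Cry1 window lies outside annotated genes.

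Depth was 15814104 to 26092014 counts per trained library and 15947347 to 18081949 per untrained library, and the clock genes had 157 to 2425 counts each in a library. The libraries carried the markers of cord tissue: Mbp of myelin, Gfap of astrocytes, Snap25 of neurons and the position gene Hoxc8 averaged 21717, 4493, 2186 and 55.7 CPM in trained cord. They averaged 19177, 4591, 2198 and 57.2 CPM in untrained cord. Levels are in CPM, the reads of a gene set against the size of its library after TMM scaling. In edgeR's quasi-likelihood test 10 of 16909 genes passed the threshold of 0.05 after Benjamini-Hochberg adjustment, or 0.0591% of the genes tested. Of these 1 was higher in trained cord (0.00591%) and 9 were lower (0.0532%).

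No clock gene passed that test: 0 of 10 in edgeR and 0 of 10 in limma-voom, which called 12 genes in all. DESeq2 called Per1 alone of the 10 clock genes, among 90 genes in all. Log2 fold changes (trained over untrained) were negative in 8 of the 10, against 52.0% of all genes tested. Their median was -0.18, beside -0.0080 for all genes. At an unadjusted edgeR p below 0.05 there were 3 lower genes (Per1, Cry1 and Nr1d2) and 1 higher one (Dbp), against a background of 5.55% lower and 4.47% higher over all genes tested. The groups did not overlap in 7 clock genes, 6 lower and 1 higher in trained cord, where 16.8% of all genes did not overlap (8.69% lower and 8.13% higher). In all 7 the gap between the nearest libraries of the groups was under 2 counting standard errors.

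**Figure D1:**
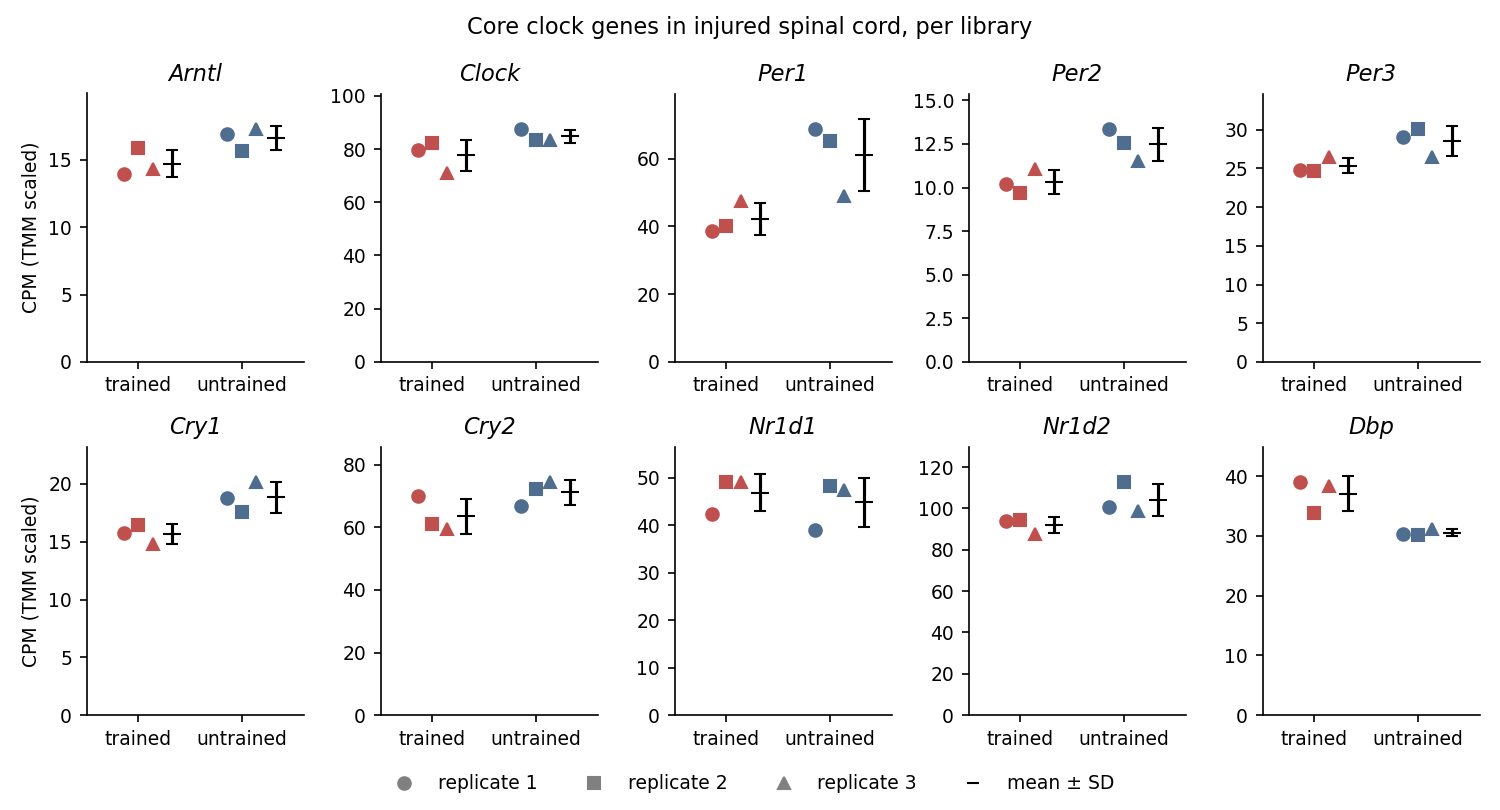
Level of each core clock gene (vertical axis, CPM with TMM scaling, from 0) in trained and untrained cord, with 1 point per library, a marker shape per replicate number and the mean ± SD (n = 3) in black. Per1 spans 38.6 to 47.5 CPM in the trained libraries and 49.0 to 68.9 CPM in the untrained ones, and Dbp is the one gene whose trained libraries all lie above the untrained ones.

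The Per genes encode the PERIOD repressors, which carry the CRY proteins back to the nucleus. Per1 (ENSMUSG00000020893, chr11:69095217-69109960, plus strand) reached 38.6, 40.1 and 47.5 CPM in trained replicates 1, 2 and 3, against 68.9, 65.3 and 49.0 CPM in untrained replicates 1, 2 and 3. Untrained replicates 1 and 2 stood well above every trained library, while untrained replicate 3 lay 1.53 CPM above trained replicate 3, with a counting standard error of 2.47 CPM. The means were 42.1 ± 4.74 CPM in trained cord and 61.1 ± 10.6 CPM in untrained cord (SD, n = 3 each), a 1.46-fold lower level in trained cord.

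The log2 fold change of Per1 was -0.54 ± 0.13 (SE, 95% interval -0.84 to -0.24), with an unadjusted p of 0.00267 and an edgeR adjusted p of 0.264. Per1 stood 171st of the 16909 genes by p. DESeq2, which called 90 genes where edgeR called 10, gave Per1 an adjusted p of 0.0151. Without untrained replicate 3 the edgeR adjusted p was 0.0411 at a log2 fold change of -0.68. Over the 14 alternative analyses, DESeq2 and limma-voom among them, the adjusted p was below 0.05 in 3. It ran from 1.42e-06 in edgeR with no filter on low counts to 0.657 in edgeR with a replicate block. The fit with no filter took little account of the spread of Per1 itself, as given below. The sign was negative in all 14.

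Per2 (chr1:91415982-91459324, minus strand), a second repressor that also takes part in resetting the clock, followed the same direction. It was at 10.2, 9.70 and 11.0 CPM in the trained libraries and at 13.4, 12.6 and 11.5 CPM in the untrained ones. The groups were separate by 0.455 CPM, less than the counting standard error of 1.19 CPM. Its log2 fold change was -0.28 ± 0.13 (95% interval -0.56 to 0.0077, edgeR adjusted p = 0.512).

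Per3 (chr4:151003652-151044665, minus strand) was at 24.8, 24.7 and 26.4 CPM in the trained libraries, against 29.1, 30.2 and 26.5 CPM in the untrained ones. The replicate 3 libraries of the groups were 0.0158 CPM apart. Its log2 fold change was -0.17 ± 0.09 (edgeR adjusted p = 0.540). Per3 lies wholly inside the span of Camta1 on the same strand, so reads of Camta1 introns could be counted with it. Camta1 itself was at 357 ± 29.5 CPM with training and 372 ± 13.0 CPM without it (SD, n = 3 each).

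The 3 Per genes shared one arrangement of libraries. In each, trained replicates 1 and 2 were lowest, untrained replicates 1 and 2 were highest, and the replicate 3 libraries of both groups lay in between and close together. Replicate numbers did not pair the libraries in general.

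**Figure D2:**
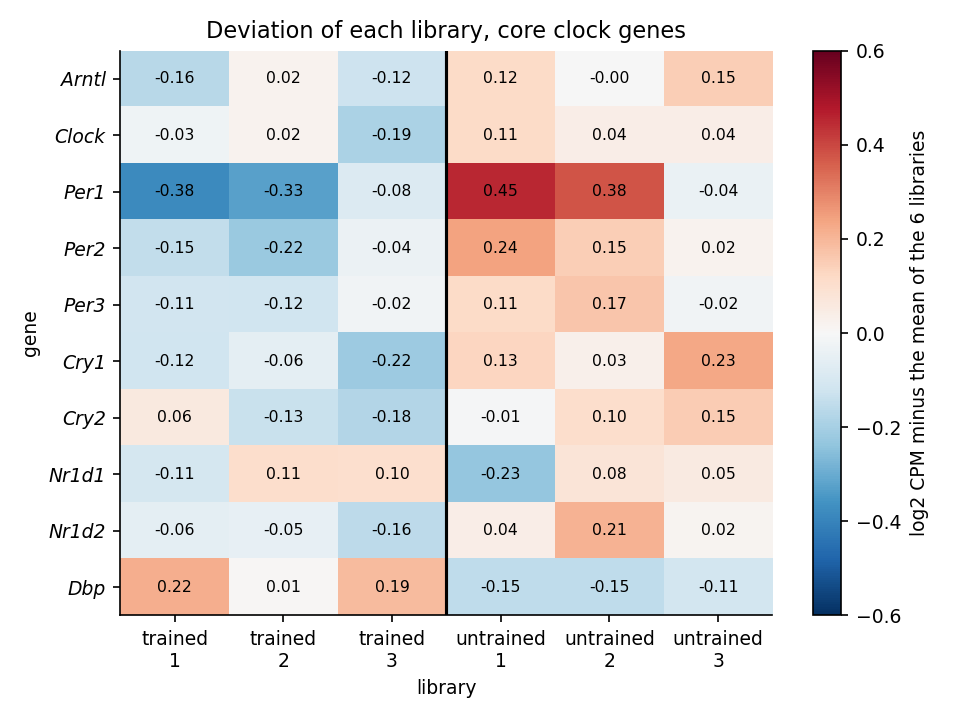
Log2 CPM of each core clock gene (rows) in each library (columns, trained left of the line and untrained right of it), minus the mean of the 6 libraries, with the value in each cell. Per1 ranges from -0.38 in trained replicate 1 to 0.45 in untrained replicate 1, Per2 and Per3 have negative values in all 3 trained libraries as Per1 does, and Dbp is positive in all 3 trained and negative in all 3 untrained libraries. Untrained replicate 3 is negative in Per1, Per3 and Dbp.

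The Cry genes encode the cryptochromes, which bind and silence the ARNTL and CLOCK pair. Cry1 (chr10:85131700-85185064, minus strand) was at 15.8, 16.5 and 14.8 CPM in the trained libraries, against 18.8, 17.5 and 20.2 CPM in the untrained ones. Every trained library was below every untrained one, by 1.05 CPM at the nearest, with a counting standard error of 1.44 CPM. Its means were 15.7 ± 0.865 CPM in trained cord and 18.8 ± 1.33 CPM in untrained cord (SD, n = 3 each). The log2 fold change was -0.26 ± 0.11 (95% interval -0.50 to -0.027), with an unadjusted p of 0.0316 and an edgeR adjusted p of 0.450.

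Cry2 (chr2:92403646-92434043, minus strand) had groups that overlapped. It was at 70.0, 61.2 and 59.5 CPM in the trained libraries and at 66.8, 72.2 and 74.6 CPM in the untrained ones. Trained replicate 1 lay above untrained replicate 1. The log2 fold change was -0.16 ± 0.08 (95% interval -0.34 to 0.015, edgeR adjusted p = 0.526), and it was -0.095 without trained replicate 3. Summed over the Per and Cry genes, the repressor arm came to 152 to 159 CPM in trained libraries and 182 to 198 CPM in untrained ones. All 5 log2 fold changes were negative, against 52.0% of all genes tested, and no background share was taken for the sum.

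Neither activator passed the test. Arntl (chr7:113207465-113314126, plus strand) was at 13.9, 15.9 and 14.3 CPM in the trained libraries, against 16.9, 15.6 and 17.3 CPM in the untrained ones. Trained replicate 2 lay above untrained replicate 2, so the groups overlapped. The log2 fold change was -0.18 ± 0.11 (95% interval -0.42 to 0.068, edgeR adjusted p = 0.632). Clock (chr5:76209868-76304792, minus strand), its partner, was at 79.6, 82.4 and 71.2 CPM in the trained libraries and 87.7, 83.3 and 83.3 CPM in the untrained ones. The trained libraries were lower by 0.880 CPM at the nearest, with a counting standard error of 3.18 CPM. Its log2 fold change was -0.13 ± 0.07 (edgeR adjusted p = 0.596), and it was -0.047 without trained replicate 3, the lowest library. Clock overlaps the pseudogene Ube2n-ps1 and the model Gm43658, Arntl overlaps Gm45355 and Cry2 overlaps D930015M05Rik, all with at most 54 counts in any library.

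The REV-ERB receptor genes had opposite signs. Nr1d2 (chr14:18204054-18239127, minus strand), which encodes REV-ERB beta, was at 93.9, 94.4 and 87.5 CPM in the trained libraries, against 101, 113 and 98.8 CPM in the untrained ones. The trained libraries were all lower, with untrained replicate 2 the highest of the 6. Its log2 fold change was -0.18 ± 0.07 (95% interval -0.34 to -0.018), with an unadjusted p of 0.0318 and an edgeR adjusted p of 0.450, and it was -0.12 without untrained replicate 2. Nr1d1 (chr11:98767932-98775333, minus strand), which encodes REV-ERB alpha, was at 42.4, 49.2 and 49.0 CPM in trained and 38.9, 48.2 and 47.4 CPM in untrained libraries.

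The groups of Nr1d1 overlapped, and in each group replicate 1 was the lowest. Its log2 fold change was 0.062 ± 0.10 (95% interval -0.15 to 0.27, edgeR adjusted p = 0.877), and it was -0.023 without untrained replicate 1. The 3′ end of Nr1d1 overlaps Thra, a thyroid hormone receptor gene on the other strand, by 1075 bases. Thra averaged 336 ± 14.5 CPM in trained cord and 304 ± 28.2 CPM in untrained cord (SD, n = 3 each). Without strand information, reads of the shared bases cannot be told apart.

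Dbp (ENSMUSG00000059824, chr7:45705088-45710203, plus strand), the output activator of the D-box, lay the other way from the repressors. Its level was 39.1, 33.8 and 38.4 CPM in the trained libraries, in the order of their numbers, against 30.3, 30.2 and 31.2 CPM in the untrained replicates. The untrained libraries lay within 1 CPM of each other, and trained replicate 2 was the nearest to them, 2.60 CPM above untrained replicate 3 with a counting standard error of 2.02 CPM. The means were 37.1 ± 2.88 CPM in trained cord and 30.6 ± 0.531 CPM in untrained cord (SD, n = 3 each), a 1.21-fold higher level in trained cord.

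The log2 fold change of Dbp was 0.28 ± 0.09 (SE, 95% interval 0.095 to 0.47), with an unadjusted p of 0.00619 and an edgeR adjusted p of 0.321. It kept its sign in all 14 alternative analyses and passed the adjusted threshold in 0 of them, DESeq2 included (adjusted p = 0.392). Dbp overlaps Sphk2, a sphingosine kinase gene on the other strand, by 737 bases. Sphk2 averaged 37.5 ± 1.62 CPM with training and 36.0 ± 2.33 CPM without it (SD, n = 3 each), with a log2 fold change of 0.057 ± 0.08 (edgeR adjusted p = 0.859).

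**Figure D3:**
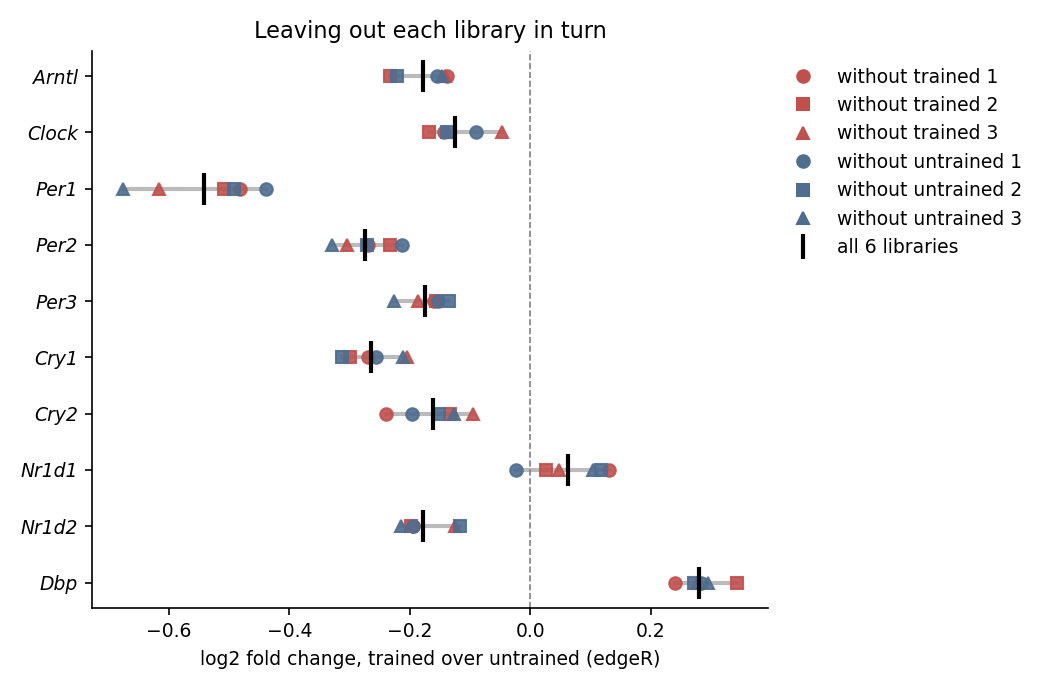
Log2 fold change (trained over untrained, edgeR) of each core clock gene with all 6 libraries (black bar) and with each library left out (points, red for a trained and blue for an untrained library left out). Per1 ranges from -0.68 to -0.44 and Dbp from 0.24 to 0.34, and Nr1d1 is the one gene whose points lie on both sides of 0.

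Ratios within a library do not depend on its depth or scaling. The log2 ratio of Dbp to Per1 was 0.016, -0.25 and -0.31 in trained replicates 1, 2 and 3, against -1.18, -1.11 and -0.65 in the untrained replicates. The means were -0.18 ± 0.17 in trained and -0.98 ± 0.29 in untrained cord (SD, n = 3 each), and the groups did not overlap. That follows from the levels alone, since every trained library had more Dbp and less Per1 than every untrained one. The groups did not overlap in the log2 ratio of Dbp to Arntl either, at 1.49, 1.09 and 1.42 in trained and 0.84, 0.95 and 0.85 in untrained libraries. The ratios of Per1 to Arntl and of Nr1d1 to Arntl overlapped between the groups, with means of 1.51 ± 0.20 and 1.67 ± 0.09 in trained cord and of 1.86 ± 0.31 and 1.43 ± 0.21 in untrained cord. These ratios were not tested, since their genes were chosen with their values known.

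Set per kilobase of the gene length in the table, the levels over the 6 libraries ran in the order Nr1d2, Nr1d1, Dbp, Cry2, Per1, Clock, Cry1, Per3, Arntl and Per2. Nr1d2 averaged 17.0 ± 0.713 CPM per kilobase in trained and 19.2 ± 1.42 in untrained cord, and Per2 averaged 1.76 ± 0.116 and 2.13 ± 0.161 in the same order of groups (SD, n = 3 each). The ranges of Nr1d2 and Nr1d1 did not overlap, nor did those of Per1 and Clock, of Cry1 and Per3, or of Per3 and Arntl. The other neighbours in the order overlapped: Nr1d1 with Dbp, Dbp with Cry2, Cry2 with Per1, Clock with Cry1, and Arntl with Per2.

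Beyond the core loop, 29 further clock pathway genes were read, all of which passed the filter. The adjusted test was passed by 0 of them in edgeR, DESeq2 and limma-voom alike. At an unadjusted p below 0.05 there were 3 lower and 0 higher in trained cord, where 5.55% of all genes tested were lower and 4.47% higher. The 3 came to 1 without untrained replicate 2 or with a replicate block. Log2 fold changes were negative in 23 of the 29, against 52.0% of all genes, with a median of -0.059 beside -0.0080. Rora, a nuclear receptor that activates Arntl through the same element REV-ERB represses, was at 46.7, 47.7 and 44.2 CPM in the trained libraries and at 52.4, 61.3 and 56.8 CPM in the untrained ones. All trained libraries were lower, and the log2 fold change was -0.30 ± 0.08 (95% interval -0.47 to -0.13), with an unadjusted p of 0.00247 and an edgeR adjusted p of 0.255. Its relative Rorb was at a log2 fold change of -0.027.

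Of the 8 kinase and ubiquitin ligase genes that set the stability of the clock proteins, 7 had negative log2 fold changes. Together they came to 780 to 833 CPM in trained and 863 to 914 CPM in untrained libraries. These sums did not overlap between the groups, but no background share was taken for a sum. Singly, 4 of the 8 did not overlap, all lower in trained cord, against 8.69% of all genes tested. Between the nearest libraries, trained minus untrained, the gap was -7.32 CPM in Gsk3b, -2.36 in Csnk1d, -1.64 in Csnk2a1 and -0.791 in Fbxw11. No counting error was taken for these gaps. Over all 29 further pathway genes, 6 did not overlap, all lower in trained cord. Gsk3b, a kinase of several clock proteins, was at a log2 fold change of -0.19 ± 0.07 and Csnk2a1, a casein kinase 2 subunit, at -0.16 ± 0.07 (edgeR adjusted p = 0.430 and 0.489). Fbxw11, a ubiquitin ligase subunit that targets PER proteins, was at -0.17 ± 0.08 (edgeR adjusted p = 0.518). Without trained replicate 3 Gsk3b was at -0.11 and Fbxw11 at -0.074, and without untrained replicate 2 Csnk2a1 was at -0.10. Ciart, a repressor of the ARNTL and CLOCK pair, averaged 6.24 ± 1.24 CPM with training and 8.29 ± 1.52 CPM without it, with overlapping groups (SD, n = 3 each). The log2 fold change of Ciart was -0.41, and it was -0.26 without trained replicate 2 or without untrained replicate 2. The PAR bZIP relatives of Dbp did not share its sign throughout: Tef was at a log2 fold change of -0.12 and Hlf at 0.015.

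**Figure D4:**
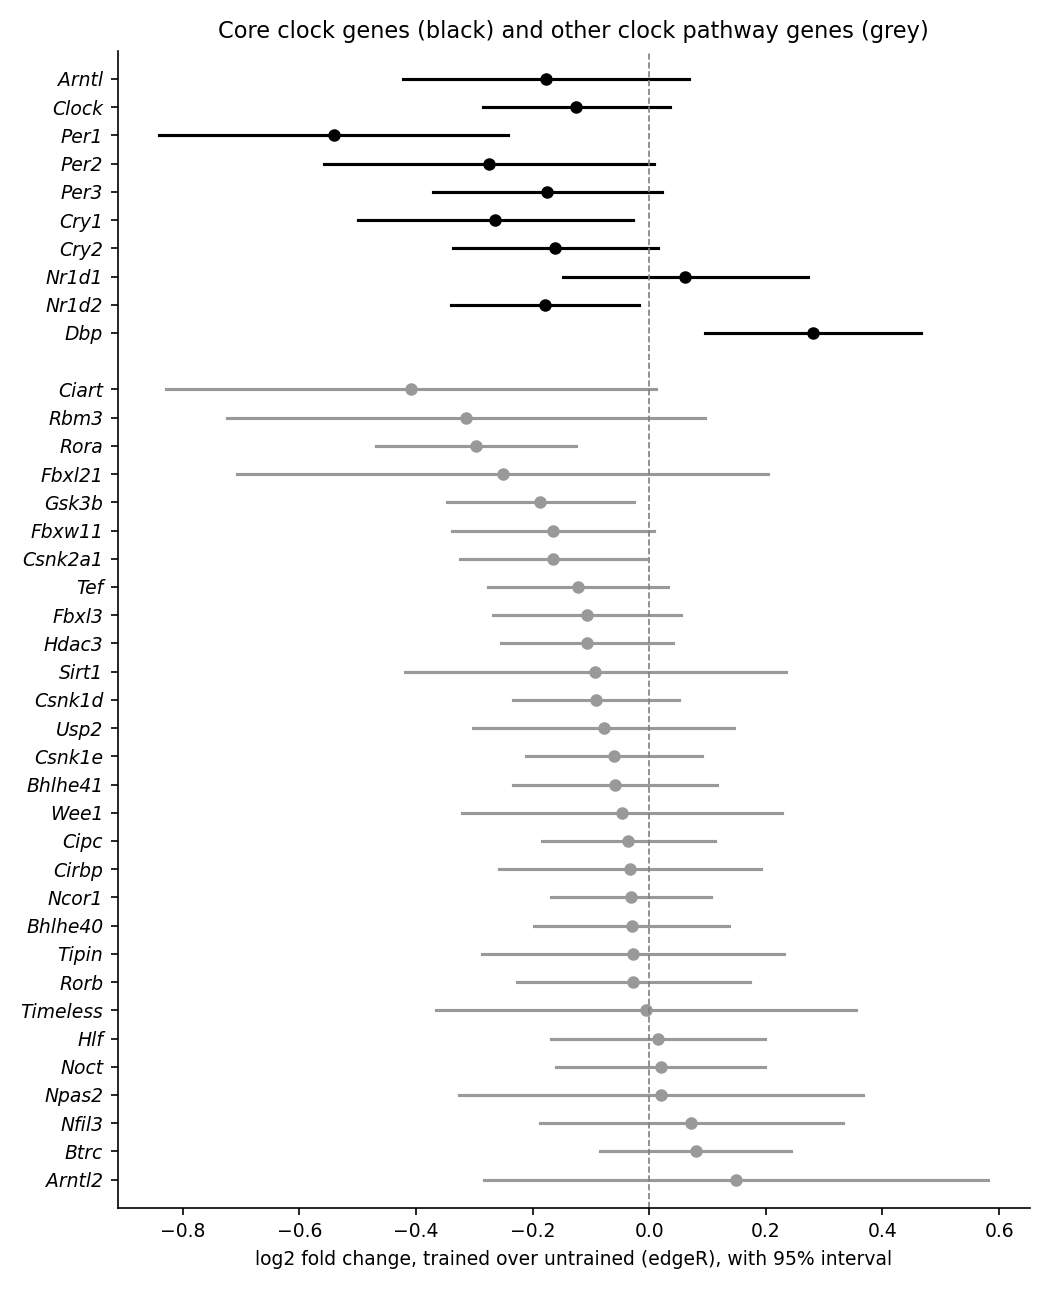
Log2 fold change (horizontal axis, trained over untrained, edgeR) with its 95% interval for the 10 core clock genes in black, ordered by role, and 29 other clock pathway genes in grey, ordered by value. Dbp at 0.28 is the one gene with an interval wholly above 0, and Per1, Cry1, Nr1d2, Rora, Gsk3b and Csnk2a1 have intervals wholly below it, before adjustment over all genes.

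The patterns nearest to those of Per1 and Dbp were sought among 10758 other genes of at least 10 CPM, by Pearson's r of log2 CPM over the 6 libraries, as a description that the difference between groups enters. Nearest to Per1 were Trim56, Npnt, Sgms2, Cttnbp2nl and Capn2, with r of 0.985 to 0.978. Per3 and Per2 stood 9th and 11th in that order, with r of 0.974 and 0.971. The other members were at 0.688 (Nr1d2), 0.515 (Arntl), 0.501 (Cry1), 0.464 (Clock), 0.288 (Cry2), -0.331 (Nr1d1) and -0.757 (Dbp). Nearest to Dbp were Gipc1, Lage3, Mex3d, Brd2 and Gamt, with r of 0.989 to 0.976. The edgeR adjusted p of these 10 genes outside the clock ran from 0.218 to 0.803.

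Of 12 genes outside the clock that glucocorticoids induce, 8 were lower in trained cord at an unadjusted edgeR p below 0.05, against 5.55% of all genes tested. These 12 were chosen with earlier results of these data known, so their counts are a description and not a test. After adjustment 2 passed, both lower (Dusp1 and Zbtb16), against 0.0532% of all genes. The median log2 fold change of the 12 was -0.30, beside -0.0080 for all genes, with 10 negative and 2 positive. No list of cAMP targets was read beside them. Any part of glucocorticoids or of cAMP signalling in the level of Per1, which is known as a target of both, was not tested.

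Cell type markers were summed over whole lists, and no marker in any list was at 0. In bulk tissue fewer cells of a type and less RNA per cell cannot be told apart. The 6 neutrophil markers summed to 30.6 to 64.3 CPM in trained and 14.6 to 22.1 CPM in untrained libraries. All 6 log2 fold changes were positive, with a median of 1.46, the largest shift of these lists. At an unadjusted edgeR p below 0.05 all 6 were higher, against 4.47% of all genes tested, and 0 passed after adjustment. The 5 red blood cell markers summed to 61.1 to 145 CPM in trained and 36.6 to 67.8 CPM in untrained libraries. All 5 were positive, with a median log2 fold change of 0.93, and 0 of them had an unadjusted p below 0.05. The 6 endothelial markers summed to 293 to 346 CPM in trained and 343 to 425 CPM in untrained libraries, with all 6 negative. The 7 microglia markers ranged over 899 to 1364 CPM in trained and 1155 to 1327 CPM in untrained libraries, and the 6 Schwann cell markers over 190 to 1389 and 839 to 1270 CPM, with trained replicate 1 the lowest in both. All 7 and all 6 of their log2 fold changes were negative, with medians of -0.17 and -0.30, beside -0.17 for the endothelial markers. The 10 neuron markers summed to 6275 to 7744 CPM in trained and 7021 to 8083 CPM in untrained libraries, with 6 negative. The 6 oligodendrocyte markers came to 37064 to 41621 CPM in trained and 32696 to 37703 CPM in untrained libraries, with 5 positive, and the 7 astrocyte markers to 7403 to 9403 and 8553 to 8980 CPM, with 5 negative. The 6 cord position genes, Hoxc8 among them, summed to 200 to 234 CPM in trained and 205 to 222 CPM in untrained libraries. Their log2 fold changes ran from -0.57 to 0.32, with 3 positive and 3 negative. The groups did not overlap in 2 of them, both higher in trained cord, against 8.13% of all genes tested. The part of these differences in the clock gene levels was not tested.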

How the data were processed

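Total RNA of spinal cord was sequenced in paired ends by Illumina NovaSeq, per the protocols in the labels. The deposited values are unnormalized counts of reads for each Ensembl gene, all in 1 table. The submitters' processing notes name Bowtie 0.12.2, mm8 and mm9 without a role. The sources used here do not say which counter and annotation were used, or whether strand was. Gene lengths, in bases, are as the authors deposited them, with no word on how they were counted. Coordinates are the table's: those of all 10 clock genes equal the GENCODE M21 annotation of GRCm38.

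The edgeR 4.0.16 quasi-likelihood test (R 4.3.3, TMM, filterByExpr, robust, no term other than group) was run on the counts of 16909 genes that passed the filter, with Benjamini-Hochberg adjustment over all of them. The median biological coefficient of variation was 0.117. A standard error is the log2 fold change divided by the square root of F. Counting errors are Poisson errors and cover counting only. The fit was tested on simulated counts. Alternatives were RLE, upper-quartile or no scaling factors, 2 other filters, DESeq2 1.42.0, limma-voom 3.58.1, a replicate block and leaving out each library. The labels do not say whether libraries came from separate mice, so the p-values speak of the spread among these 6 samples alone, and that spread could be technical.

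Members and lists were chosen with earlier results of these data known. Named were all members, the 5 other pathway genes of smallest p, genes overlapping a member, the 5 genes most like Per1 and Dbp, and 4 tissue markers. Rorb, Csnk1d, Tef, Hlf, Dusp1, Zbtb16, Rbm3 and Fkbp5 were named after their values were seen. One further gene was taken off the pathway list after its values were seen and is not reported here.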

Additional observations from a re-analysis of the deposited data

How the results depend on the processing

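The signs of the clock genes held over 14 alternatives each, 139 of 140 values, the exception being Nr1d1 at -0.023 without untrained replicate 1 (leaving out 1 library gave it -0.023 to 0.13). The count of negative members, added after seeing the data as was that of other pathway genes past the test, was 8, or 9 without that library. All alternatives reuse the same libraries, so the 140 values are not separate evidence for a sign. Changing the scaling alone moved values little, as for Per1, at -0.54 to -0.52. With no filter on low counts edgeR called 276 genes (119 higher, 157 lower), with 1 clock gene (Per1) and 1 other pathway gene (Rbm3, a cold-induced RNA-binding protein gene) among them. In that fit, over 30362 genes, the prior degrees of freedom of Per1 were 9250 against 5.07 with the filter. Its estimated spread then rested on other genes far more than on its own replicates, so its p there is not a measure of them. DESeq2 called 90 genes (36 higher, 54 lower), with 1 clock gene past the test (Per1) and 2 at an unadjusted p below 0.05, and the cause was not tested. With a replicate block edgeR called 5 genes (0 higher, 5 lower), 2 clock genes had an unadjusted p below 0.05 and 1 other pathway gene did (1 lower). Same-numbered libraries deviated against each other (r = -0.18, -0.091 and -0.13 across genes), and 0 of 6 correlated best with their own number, so the numbers did not pair them. Leaving out 1 library gave 4 to 221 genes past the test (0 to 73 higher, 4 to 148 lower), the fewest without trained replicate 2 and the most without trained replicate 3. It gave 0 to 1 clock genes past it, 2 to 5 clock genes at an unadjusted p below 0.05 (2 without trained replicate 3 or untrained replicate 1) and 1 to 4 other pathway genes (1 without untrained replicate 2). With 157 counts or more of each clock gene in a library, all 7 gaps between groups that did not overlap were under 2 counting standard errors.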

Other observations

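Fkbp5, a co-chaperone gene that glucocorticoids induce, had nearly the mirror image of Dbp over the libraries. Its Pearson's r with Dbp was -0.986, and the difference between groups enters that value. From the most alike down, Fkbp5 stood 10752nd of 10758 genes, so it was not the most opposed to Dbp. Any link between them was not tested. The level of Fkbp5 was 25.4, 30.0 and 26.9 CPM in the trained libraries, in the order of their numbers, against 33.4, 33.2 and 31.3 CPM in the untrained replicates. Trained replicate 2, the trained library with the least Dbp, had the most Fkbp5 of the trained ones. The log2 fold change of Fkbp5 was -0.25 ± 0.09 (edgeR adjusted p = 0.380), and the gene was picked out after its values were seen.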
